A study of Arabidopsis thaliana with 9 samples.

Results

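The inducible DVL4 line of Arabidopsis thaliana with and without dexamethasone was described from 6 of the 9 ATH1 arrays of the study. DVL4 dex (3 arrays) was the line that carries the DVL4 coding sequence behind the dexamethasone-activated GVG system, treated with dex at 30 µM (written um in the labels). DVL4 mock (3 arrays) was the same line after mock treatment. EV dex (3 arrays) was the empty vector line, which carries GVG with no insert, treated with dex. All groups were in the Columbia background. Plants at the stage of 6 rosette leaves, kept at 22 C with 16 h days, were harvested 10 h after treatment, and each array held a pool of the largest leaves of 20 plants. The arrays were chosen by their titles, and all 22746 probe sets other than Affymetrix controls were tested. Line is constant in this comparison, while dex and DVL4 induction change together, and a mock-treated empty vector group was not analysed here. A level in EV dex is therefore given beside some of the genes. A change given without it is not set against the empty vector line. DVL4 itself has no probe set with a name in the gene table used, so its induction was not measured here, and each transgenic genotype is 1 line.

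DVL genes, also called ROTUNDIFOLIA FOUR-LIKE (RTFL), encode small plant peptides with a conserved C-terminal domain. Overexpression of family members in Arabidopsis is known to give short, rounded leaves and altered fruit, inflorescence and trichome shape, and the peptides are associated with the plasma membrane. GVG is a chimeric transcription factor that enters the nucleus when it binds a glucocorticoid such as dex, and GVG is present in both lines. Leaf growth rests on cell division early on and then on wall loosening, wall synthesis, cytoskeletal order and vesicle traffic to the cell surface. These functions are described in detail, from gene lists chosen with earlier results of these data known.

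Values are intensities on the authors' linear dChip scale, and changes are log2 differences, DVL4 dex minus DVL4 mock, with the limma standard error and the p adjusted over all 22746 probe sets. A gene rose or fell where that p was under 0.05. Of the probe sets, 23.7% (5401) passed. In direction, 12.8% (2913) were higher and 10.9% (2488) lower in DVL4 dex, of which 725 and 632 moved at least 2-fold and 169 and 45 at least 4-fold. The arrays of the groups did not overlap for 43% of probe sets. Functions were read from 1678 genes that have a name beyond a locus code. Among these 25% passed, with 13.3% higher and 11.6% lower and a median change of -0.002, and these shares are the background for each list. In the same fit 10.2% of probe sets differed between DVL4 dex and EV dex and 6.21% between EV dex and DVL4 mock. Those comparisons share arrays with this one.

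The leaf origin of the RNA was plain in the markers. RCA, LHCB4.1 and PRK, which encode Rubisco activase, a chlorophyll-binding antenna protein and phosphoribulokinase, lay between 7995 and 10620 in the DVL4 dex arrays, against 8739 to 11250 in the DVL4 mock arrays, and none of the 3 passed. The root genes EXPA18 and PYK10 were dim, at 18.8 to 45.1 in DVL4 dex arrays and 20.2 to 57.3 in DVL4 mock arrays. EXPA7, also a root gene, was dim as well but passed as higher in DVL4 dex. It lost the test in 9 alternatives, and its values are given with the expansins below. The arrays differed in the ratio of 5' to 3' signal of the dap control, a bacterial spike-in transcript. This ratio was 0.278, 0.262 and 0.832 in DVL4 dex arrays 1 to 3, against 0.946, 1.27 and 1.06 in DVL4 mock arrays 1 to 3. EV dex array 1 was low as well, at 0.228. Calls among the 6 arrays therefore compare groups of which 2 DVL4 dex arrays had low 5' signal, and array 3 is given separately where its values bear on a list. With only the arrays of normal 5' signal, which leaves 1 DVL4 dex array, 1360 probe sets passed. Under that setting 2 rose and 1 fell among the traffic genes described next, 3 rose among autophagy genes, 5 among microtubule genes and 4 among genes of amino acid and purine breakdown, and 3 fell among flavonoid genes.

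Among the 25 largest rises of genes with a name beyond the locus code were several enzymes. ALDH7B4, an aldehyde dehydrogenase known to respond to dehydration and salt, had 3453, 3389 and 3259 in DVL4 dex arrays, against 433, 316 and 421 in DVL4 mock arrays. SDP1, a lipase that starts the breakdown of stored triacylglycerol, had 537, 489 and 408 in DVL4 dex arrays and 104, 85.5 and 93.9 in DVL4 mock arrays. CYP71B26, a cytochrome P450, had 708, 713 and 495 in DVL4 dex arrays and 63.5, 46.4 and 46.5 in DVL4 mock arrays. All 3 genes were higher in every DVL4 dex array than in any DVL4 mock array, by 3.12 ± 0.13, 2.33 ± 0.14 and 3.61 ± 0.19 on the log2 scale (SE; adjusted p 8.9e-07, 7.7e-06 and 3.1e-06). Their EV dex means were 1420 ± 189, 195 ± 26.4 and 199 ± 29.9 (SD, n = 3), between the means of the other groups. MYBC1, a MYB-like transcription factor, averaged 2293 in DVL4 dex and 155 in DVL4 mock, with 600 in EV dex, a rise of 3.88 ± 0.12. The subtilisin-like protease ATSBT5.2 rose by 2.39 ± 0.28, with 570, 667 and 479 in DVL4 dex arrays against 109, 108 and 106 in DVL4 mock arrays. Its EV dex mean was 252 ± 125.

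The 25 largest falls of genes with such a name included a repair enzyme, a light-response factor and a protease. MSRB6, a methionine sulfoxide reductase that repairs oxidised methionine, had 154, 174 and 320 in DVL4 dex arrays, against 1297, 1278 and 1311 in DVL4 mock arrays. HYH, the bZIP homologue of HY5 in light signalling, had 45.7, 36.8 and 55.1 in DVL4 dex arrays, against 172, 165 and 202 in DVL4 mock arrays. NANA, a chloroplast aspartic protease, had 31.4, 33.1 and 47.5 in DVL4 dex arrays, against 139, 133 and 146 in DVL4 mock arrays. The groups did not overlap for any of these, and the falls were -2.66 ± 0.25, -1.98 ± 0.17 and -1.93 ± 0.18 on the log2 scale. In EV dex the means were 635 for MSRB6, 130 for HYH and 99.4 for NANA.

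**Figure D1:**
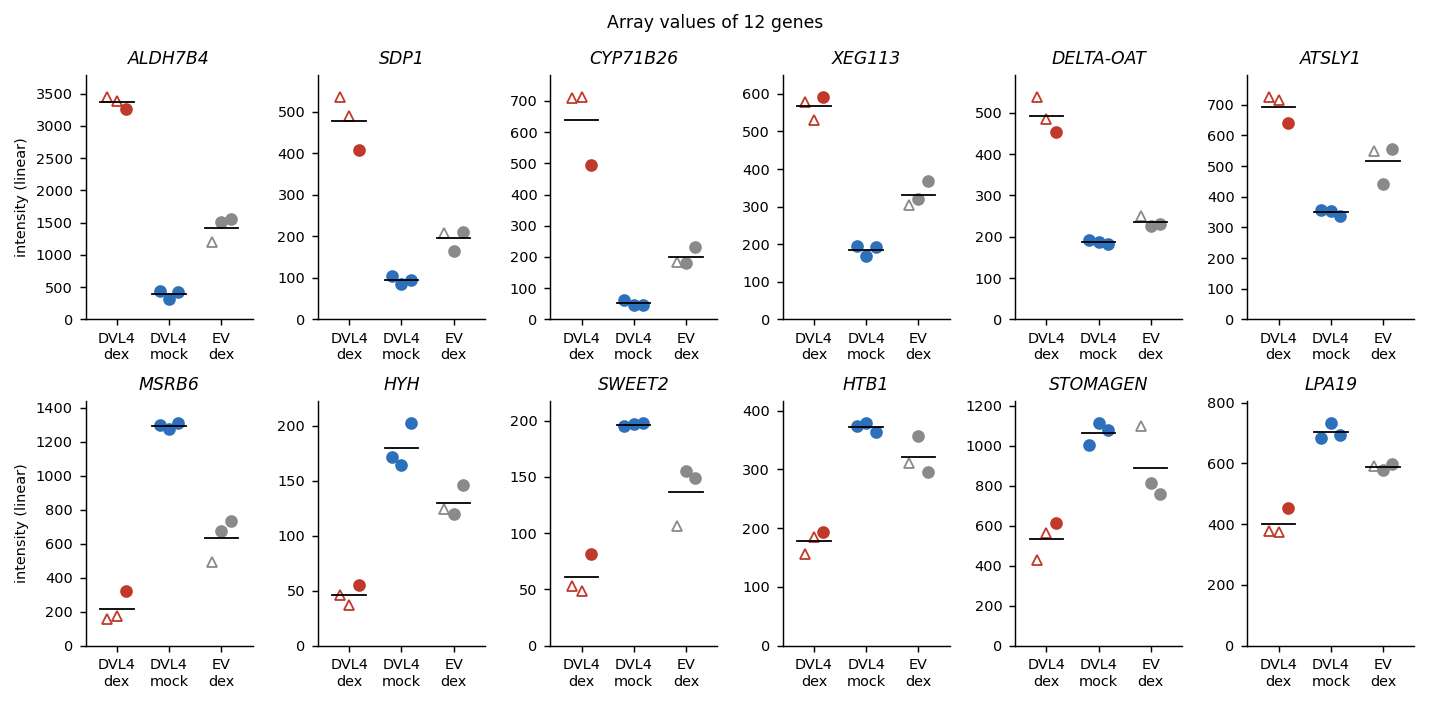
Intensity on the authors' linear scale of 12 genes in each array of DVL4 dex, DVL4 mock and EV dex, with the group mean as a bar. Open triangles are the 3 arrays with low 5' signal. In the upper row each DVL4 dex array lies above each DVL4 mock array, and in the lower row each lies below.

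Many genes of vesicle traffic rose in DVL4 dex. Of 28 measured members of the list (exocyst, coat, tether, SNARE and Rab proteins), 14 rose and 1 fell, with a median change of 0.40. ATSLY1, a Sec1/Munc18 protein that regulates SNARE pairing between the endoplasmic reticulum (ER) and the Golgi, had 726, 716 and 640 in DVL4 dex arrays, against 356, 355 and 337 in DVL4 mock arrays. The SNARE YKT61 had 1555, 1518 and 1362 in DVL4 dex arrays, against 910, 975 and 975 in DVL4 mock arrays. KEU, a Sec1/Munc18 protein needed for vesicle fusion in cytokinesis, had 296, 320 and 303 in DVL4 dex arrays, against 197, 184 and 209 in DVL4 mock arrays. The groups were apart in all 3 genes, with changes of 0.99 ± 0.10, 0.63 ± 0.08 and 0.64 ± 0.09 (adjusted p 0.00016, 0.00034 and 0.0010).

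The traffic genes that rose act at several steps. For export from the ER, the coat gene SEC31B (AT3G63460) averaged 422 in DVL4 dex and 192 in DVL4 mock, and the other measured SEC31 gene, SEC31A (AT1G18830), was dim and lower at 10.3 in DVL4 dex and 19.8 in DVL4 mock. For retrieval and tethering at the Golgi, AtSec20 rose by 0.57, MAG2 by 0.90, RAB6A by 0.59 and the golgin ATGRIP by 0.78. CLUB, a subunit of the TRAPPII tether, had 579, 596 and 468 in DVL4 dex arrays, against 268, 275 and 280 in DVL4 mock arrays, a rise of 0.99 ± 0.18. Of the exocyst, the complex that docks vesicles at the plasma membrane, SEC10, SEC15B and SEC5A rose by 0.52, 0.59 and 0.32 (SEC5A lost the test in 9 alternatives), while SEC15A, SEC6, EXO84B and SEC5B did not pass. The mu subunits of the adaptor complexes AP-2 (AT5G46630) and AP-4 (AT4G24550) rose by 0.41 and 0.35. The list median against the DVL4 mock mean was 0.37, 0.45 and 0.37 in DVL4 dex arrays 1 to 3, against -0.001, -0.009 and 0.009 in DVL4 mock arrays. DVL4 dex array 3, with normal 5' signal, was thus as high as array 1. In EV dex arrays the same median was 0.13, 0.10 and 0.21.

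The ER and the later sorting steps showed smaller shares. Of 18 ER folding and stress genes 7 rose and 1 fell (median 0.19). DER1 and OS9, which act in the removal of misfolded proteins from the ER, rose by 0.56 ± 0.11 and 0.51 ± 0.11, and the calreticulin CRT1b by 0.50 ± 0.11. ATERDJ2A, a J protein of the ER translocon, had 505, 598 and 629 in DVL4 dex arrays, against 339, 336 and 355 in DVL4 mock arrays. The membrane-bound bZIP factors of the unfolded protein response split, since BZIP17 (0.80) and BZIP28 (0.45) passed and BZIP60 did not, at 0.08. Both passing factors lost the test in several alternatives, BZIP28 in 11 of them. Of 15 ESCRT and vacuolar sorting genes 5 rose and 1 fell (median 0.06). SNF7.1, VPS46.2 and ELC, components of the ESCRT machinery that sorts ubiquitinated membrane proteins, rose by 0.71, 0.47 and 0.55. The list count depends on single arrays, with 3 higher and 0 lower without DVL4 dex array 1 and 0 of 15 passing when only the arrays with normal 5' signal were used. Among 5 listed genes of the vacuolar-type proton pump, VHA-A1 and VHA-A2 rose by 0.87 and 0.66 and none fell. VHA-A3 did not pass, at -0.13. From EV dex to DVL4 dex the changes of VHA-A1 and VHA-A2 were 0.20 and 0.30, and neither passed.

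**Figure D2:**
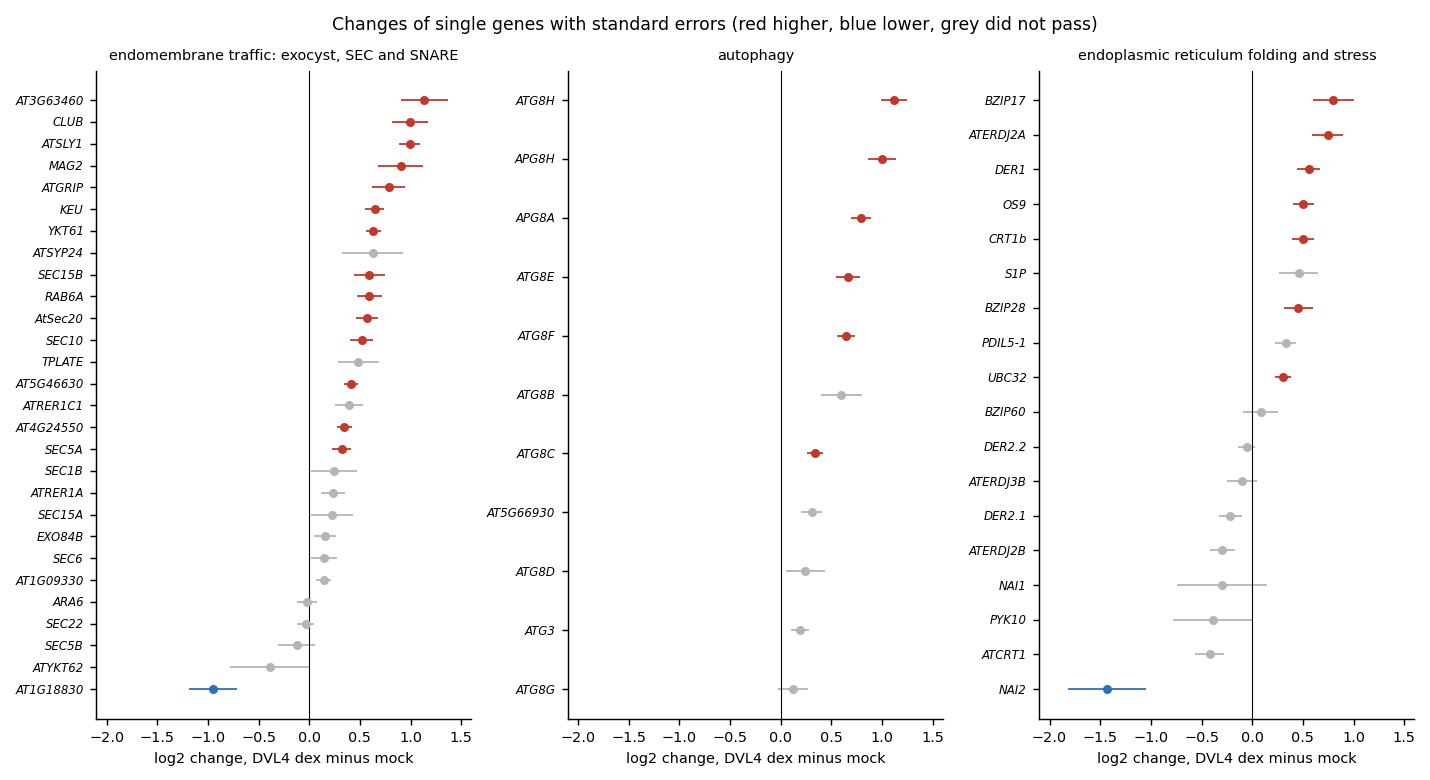
Log2 change with its standard error, DVL4 dex minus DVL4 mock, for every measured gene of 3 lists. Red genes rose, blue genes fell and grey genes did not pass; 14 of 28 traffic genes, 6 of 11 autophagy genes and 7 of 18 ER genes are red.

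The autophagy genes with a name beyond the locus code, most of them ATG8 genes, were all above 0. Of these 6 of 11 passed, with a median of 0.60. The risers were all ATG8 genes, whose products coat the growing autophagosome. APG8H had 2092, 2045 and 1736 in DVL4 dex arrays, against 1063, 825 and 1067 in DVL4 mock arrays, and APG8A had 1014, 962 and 779 in DVL4 dex arrays, against 510, 530 and 543 in DVL4 mock arrays. EV dex averaged 1448 for APG8H and 640 for APG8A. Between DVL4 dex and EV dex, APG8A passed and APG8H did not (limma adjusted p 0.013 and 0.074). Outside the ATG8 genes, ATG3, the enzyme that conjugates ATG8 to lipid, and ATG101 (AT5G66930) did not pass, at 0.19 and 0.30. The list median was 0.47, 0.71 and 0.36 in DVL4 dex arrays 1 to 3, so that the array with normal 5' signal was the lowest of the 3 and still above all DVL4 mock arrays (-0.05 to 0.05). Genes of protein tagging that passed were all higher. Of 13 E2 ubiquitin conjugation genes 4 rose and 0 fell, with PEX4, the E2 of peroxisomes, the clearest at 0.51 ± 0.10. The other 3, UBC16, UBC28 and UBC32, each lost the test in 7 alternatives. Of 30 ubiquitin ligase and related genes 5 rose and 0 fell, a share of risers near the background of 13.3%. The list median was 0.003 and the risers had adjusted p between 0.014 and 0.043.

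The cytoskeleton genes followed next. Of 49 microtubule genes 13 rose and 2 fell (median 0.13). IQD30, of the IQ67-domain family whose members bind calmodulin and often microtubules, had 408, 376 and 324 in DVL4 dex arrays, against 132, 105 and 152 in DVL4 mock arrays, and 243 in EV dex. ATMAP65-6, a microtubule-bundling protein, had 561, 582 and 622 in DVL4 dex arrays, against 306, 255 and 314 in DVL4 mock arrays. The groups did not overlap in either gene, and the rises were 1.52 ± 0.15 and 1.02 ± 0.10. The beta-tubulins TUB6, TUB9 and TUB5 rose by 0.56, 0.59 and 0.31, and TUB5 lost the test in 7 alternatives. Other listed tubulins did not pass, TUB7 and TUB1 at -0.009 and 0.22, and the alpha-tubulins TUA6 and TUA1 at 0.21 and 0.04. SPR1, a plus-end protein needed for straight growth, averaged 2367 in DVL4 dex and 1498 in DVL4 mock, and its relative SP1L3 had 1764, 1946 and 1395 in DVL4 dex arrays, against 992, 886 and 957 in DVL4 mock arrays. EV dex averaged 2014 for SPR1 and 1291 for SP1L3, and neither passed between DVL4 dex and EV dex. AN, named for the narrow leaves of its mutant, and KINESIN-13A, which limits trichome branching, rose by 0.44 and 0.49, but lost the test in 7 and 4 alternatives. TRM24, the larger of the falls, was dim at 9.23 in DVL4 dex and 26.4 in DVL4 mock. With the 5' state of the arrays as a covariate, 8 rose and 2 fell.

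Of 27 actin genes 5 rose and 0 fell (median 0.17). SPK1, the exchange factor that activates the ROP GTPases which shape trichomes and pavement cells, had 375, 397 and 297 in DVL4 dex arrays, against 148, 125 and 159 in DVL4 mock arrays, a rise of 1.31 ± 0.26 (adjusted p 0.0052). PIR121, a subunit of the WAVE complex that acts after ROP on actin, rose by 0.50, though not in 10 alternatives, at 270, 302 and 245 in DVL4 dex arrays against 199, 196 and 181 in DVL4 mock arrays. The actin-bundling protein WLIM2b rose by 0.44 ± 0.07 and the actin-binding NET1A by 1.32 ± 0.26. EV dex averaged 260 ± 93.8 for SPK1, and the difference of DVL4 dex from EV dex had an adjusted p of 0.26.

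Wall synthesis genes mostly rose where they passed, while wall-modifying families moved in both directions. Of 23 polysaccharide synthesis genes 6 rose and 2 fell (median 0.05). XEG113, which adds arabinose to extensin wall proteins, had 579, 530 and 592 in DVL4 dex arrays, against 196, 168 and 192 in DVL4 mock arrays, and EV dex averaged 330. CSLD2, a cellulose synthase-like protein known from root hair growth, had 279, 312 and 263 in DVL4 dex arrays, against 132, 121 and 113 in DVL4 mock arrays. These rises were 1.61 ± 0.10 and 1.23 ± 0.18, with no overlap between groups. The glucuronosyltransferases GlcAT14B (AT5G15050) and GlcAT14C (AT2G37585), which act on arabinogalactan proteins, rose by 0.60 and 0.59, and GUT1, of xylan synthesis, by 0.48. CSLA03, of the family that makes glucomannan, fell by 1.03.

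Among 19 expansins, proteins that loosen walls, 3 rose and 4 fell. EXPA16 had 752, 767 and 732 in DVL4 dex arrays, against 344, 338 and 311 in DVL4 mock arrays, a rise of 1.18 ± 0.08. EXLA2 had 40.6, 51.7 and 75.1 in DVL4 dex arrays, against 109, 192 and 211 in DVL4 mock arrays, a fall of -1.60 ± 0.29. The like-named EXLA1 fell by 1.17 and EXPB1 by 0.96. EXPA7, known from root hairs, passed at 23.5 to 37.0 in DVL4 dex arrays against 13.2 to 15.9 in DVL4 mock arrays, but lost the test in 9 alternatives. Of 24 trichome birefringence-like (TBL) genes, a family that acetylates wall polymers, 4 rose and 5 fell. TBL26 had 335, 461 and 442 in DVL4 dex arrays, against 1839, 1105 and 1223 in DVL4 mock arrays, while EV dex averaged 1384 ± 174. TBL18 moved the other way, at 303, 301 and 304 in DVL4 dex arrays against 157, 187 and 161 in DVL4 mock arrays. PME61, a pectin methylesterase, rose by 1.30 ± 0.10, and GH9B7, of the endoglucanase family, was the 1 member of 15 that passed, a rise of 0.78.

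**Figure D3:**
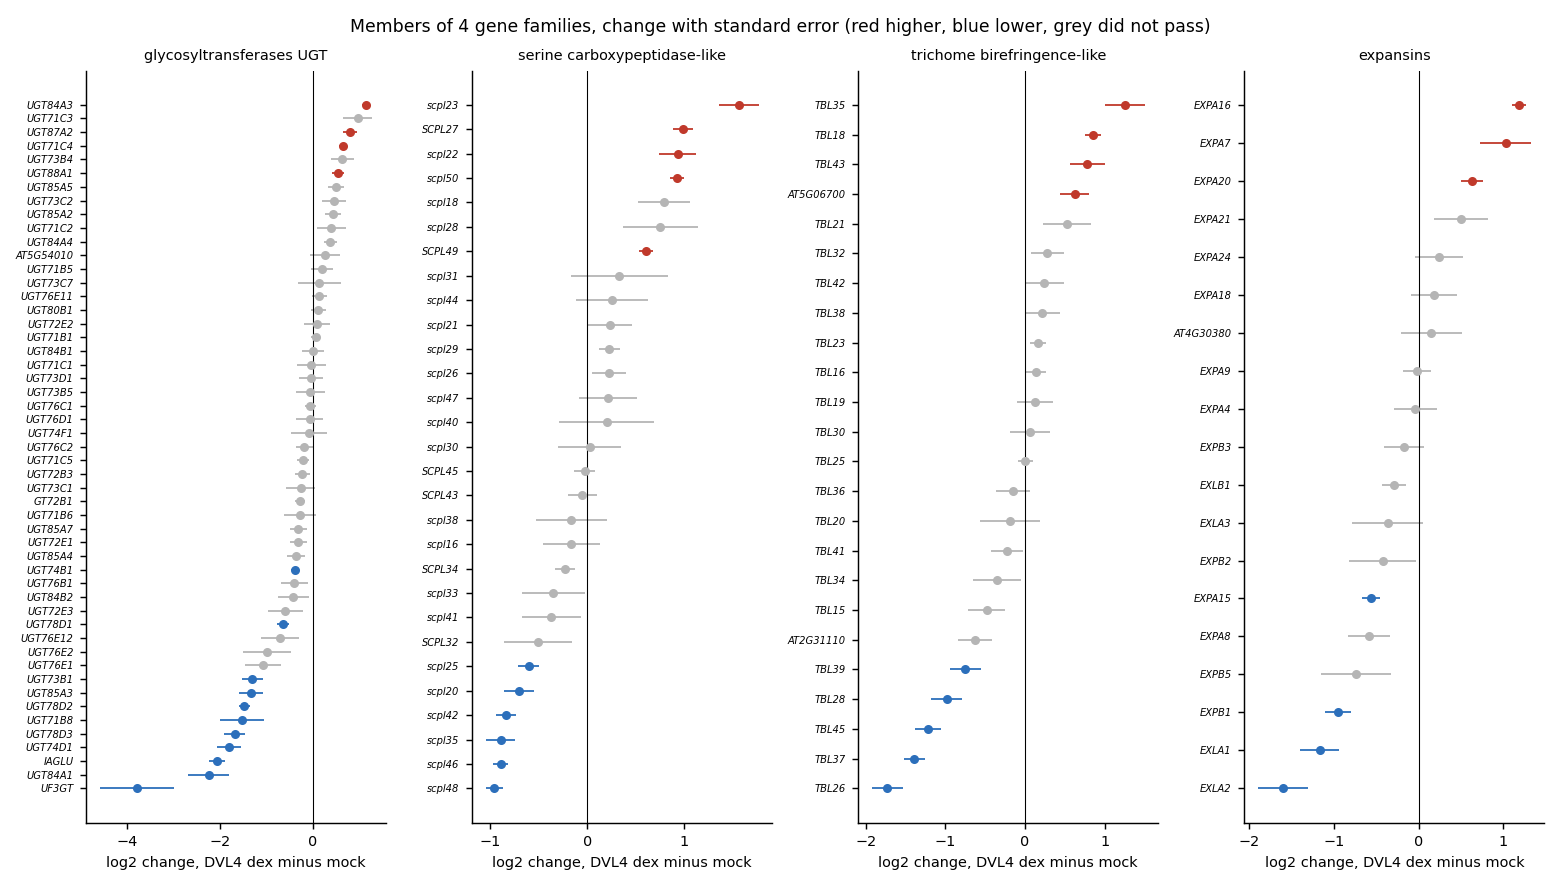
Log2 change with its standard error, DVL4 dex minus DVL4 mock, of each listed member of the UGT, serine carboxypeptidase-like, TBL and expansin families. Red members rose, blue members fell and grey members did not pass, and each family has both; the horizontal scales differ between panels.

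Primary metabolism showed changes in both storage and breakdown. Of 22 genes of amino acid and purine breakdown 6 rose and 2 fell (median 0.19). DELTA-OAT, ornithine aminotransferase of arginine breakdown, had 539, 485 and 453 in DVL4 dex arrays, against 193, 186 and 182 in DVL4 mock arrays. Both subunits of the electron transfer flavoprotein, which passes electrons from amino acid breakdown to the respiratory chain, were higher. ETFBETA had 744, 747 and 600 in DVL4 dex arrays, against 383, 316 and 363 in DVL4 mock arrays, and ETFALPHA had 391, 362 and 357 in DVL4 dex arrays, against 252, 267 and 233 in DVL4 mock arrays. The rises were 1.39 ± 0.09 for DELTA-OAT, 0.98 ± 0.11 for ETFBETA and 0.56 ± 0.12 for ETFALPHA. ASPGA1, an asparaginase, rose by 0.58 and MCCA, of leucine breakdown, by 0.90. AAH, the allantoate amidohydrolase of purine breakdown, went down, with 330, 292 and 351 in DVL4 dex arrays against 555, 540 and 588 in DVL4 mock arrays.

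Of 18 genes of the tricarboxylic acid cycle and citrate cleavage 5 rose and 0 fell (median 0.22). The cytosolic enzymes were the clearest. Of 4 measured genes of ATP citrate lyase, which makes cytosolic acetyl-CoA, 2 rose, ACLA-1 with 2326, 2347 and 2156 in DVL4 dex arrays against 1461, 1444 and 1592 in DVL4 mock arrays, and ACLB-1 with 2020, 1983 and 1722 in DVL4 dex arrays against 1038, 954 and 1120 in DVL4 mock arrays. ACLA-2 (0.30) and ACLA-3 (0.17) did not pass. The cytosolic isocitrate dehydrogenase cICDH had 4362, 4359 and 4362 in DVL4 dex arrays, against 2735, 2793 and 2703 in DVL4 mock arrays. The 2 mitochondrial enzyme genes that passed, MAB1 (0.23) and IDH-V (0.21), lost the test in 10 and 12 alternatives. Of 8 genes in a list of glycolysis and fermentation 2 rose and 2 fell. ENOC, an enolase, changed by 0.59 and GAPC2, cytosolic glyceraldehyde 3-phosphate dehydrogenase, by -0.30. The other riser was ACS, at 0.65, and the other fall was PDC2, at -0.38. GAPC2 and PDC2 each lost the test in 7 alternatives.

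Sugar transport fell more often than it rose, at 2 higher and 5 lower of 20 genes (median -0.29). TMT1, which loads sugar into the vacuole, had 1573, 1369 and 1207 in DVL4 dex arrays, against 529, 500 and 542 in DVL4 mock arrays. SWEET2, a vacuolar sugar carrier, had 52.8, 48.3 and 81.9 in DVL4 dex arrays, against 195, 197 and 198 in DVL4 mock arrays. These changes were 1.39 ± 0.13 and -1.73 ± 0.21, without overlap of the groups, and EV dex averaged 725 for TMT1 and 137 for SWEET2. SWEET1, SFP2, SWEET13 and SWEET14 fell by 0.62, 1.17, 0.66 and 1.06. SWEET14 lost the test in 11 alternatives. SAG29, itself a SWEET gene, was the other riser at 4.56 and one of the largest of all. SAG29 averaged 161 in DVL4 dex, 6.74 in DVL4 mock and 43.6 in EV dex. Of 11 starch and sucrose genes 4 rose and 0 fell, among them SBE2.2, a starch branching enzyme, with 1373, 1419 and 1035 in DVL4 dex arrays against 607, 541 and 495 in DVL4 mock arrays. DPE1, which rearranges maltodextrins in the plastid, rose by 0.46.

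In specialised metabolism most measured flavonoid genes fell and the conjugating enzymes split. Of 8 flavonoid genes 0 rose and 6 fell (median -1.58). UGT78D2, which puts glucose on flavonols and anthocyanins, had 317, 347 and 413 in DVL4 dex arrays, against 962, 927 and 1090 in DVL4 mock arrays. UGT78D1, a flavonol rhamnosyltransferase, had 560, 526 and 579 in DVL4 dex arrays, against 948, 754 and 914 in DVL4 mock arrays. The falls were -1.47 ± 0.12 and -0.65 ± 0.13, and EV dex averaged 641 and 787. In the anthocyanin genes DVL4 mock array 2 stood apart from its group. DFR, dihydroflavonol reductase, had 9.12, 10.8 and 7.82 in DVL4 dex arrays, against 197, 14.3 and 171 in DVL4 mock arrays. UF3GT, an anthocyanin glycosyltransferase, had 9.05, 7.55 and 20.8 in DVL4 dex arrays, against 285, 38.3 and 346 in DVL4 mock arrays. Array 2 of DVL4 mock was the lowest of its group in both genes, and DFR lost the test in 8 alternatives.

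The UGT family attaches sugars to small molecules. Its listed members, those with a name beyond the locus code, had 4 higher and 11 lower of 51 genes (median -0.18). Without probe sets dimmer than the median the counts were 5 higher and 5 lower, and with only the arrays of normal 5' signal 3 higher and 4 lower. Of the UGT genes that act on auxin, IAGLU and UGT74D1 fell. UGT84B1 did not pass, at 33.4 in DVL4 dex and 32.4 in DVL4 mock. IAGLU, which esterifies indole-3-acetic acid with glucose, had 95.8, 86.2 and 123 in DVL4 dex arrays, against 433, 383 and 443 in DVL4 mock arrays, and UGT74D1, also active on auxins, had 129, 119 and 229 in DVL4 dex arrays, against 490, 494 and 611 in DVL4 mock arrays. UGT84A3 and UGT84A1, of the group that makes hydroxycinnamate glucose esters, moved apart. UGT84A3 had 1216, 1088 and 1009 in DVL4 dex arrays, against 541, 462 and 488 in DVL4 mock arrays, while UGT84A1 was dim, at 1.69 in DVL4 dex and 24.2 in DVL4 mock. Of 29 serine carboxypeptidase-like genes 5 rose and 6 fell. The changes were mostly below 2-fold and tight between replicates, as in scpl50 with 572, 575 and 557 in DVL4 dex arrays against 303, 301 and 294 in DVL4 mock arrays, and scpl46 with 377, 407 and 418 in DVL4 dex arrays against 761, 730 and 737 in DVL4 mock arrays. Of 14 glutathione transferases 3 rose and 2 fell, with GSTU26 at 492, 395 and 381 in DVL4 dex arrays against 125, 137 and 141 in DVL4 mock arrays. EV dex averaged 464 ± 112 for GSTU26, which did not pass between DVL4 dex and EV dex (adjusted p 0.75).

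Redox genes were mixed, with 8 higher and 7 lower of 36. ATMDAR2, a monodehydroascorbate reductase that regenerates ascorbate, had 1330, 1250 and 1206 in DVL4 dex arrays, against 504, 373 and 378 in DVL4 mock arrays. TAPX, the thylakoid ascorbate peroxidase, rose by 0.62 ± 0.12, and GLDH, of the last step of ascorbate synthesis, by 0.64. Of the methionine sulfoxide reductases, MSRB5 fell by 0.83 beside MSRB6, while MSRA5 rose by 0.37. CCS, the copper chaperone of superoxide dismutase, averaged 652 in DVL4 dex and 1065 in DVL4 mock, and was lower still in EV dex at 419. CCS lost the test in 7 alternatives.

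In the hormone lists the share of genes that passed lay near the background of 25%, or below it. Of 25 auxin genes 3 rose and 3 fell (median 0.009). LBD16, a factor induced by auxin that acts in lateral root initiation, had 63.8, 75.3 and 63.4 in DVL4 dex arrays, against 18.5, 22.3 and 25.6 in DVL4 mock arrays, a rise of 1.62 ± 0.20. Of 8 cytokinin genes 0 rose and 2 fell, the type-A response regulators ARR15 and RR16, which cytokinin induces. ARR15 had 14.4, 26.0 and 29.1 in DVL4 dex arrays, against 105, 124 and 115 in DVL4 mock arrays, and RR16 had 434, 471 and 574 in DVL4 dex arrays, against 805, 840 and 945 in DVL4 mock arrays. The groups did not overlap in either gene, with falls of -2.37 ± 0.29 and -0.81 ± 0.15, and EV dex averaged 37.8 and 434. RR16 did not pass with only the arrays of normal 5' signal. Of 27 jasmonate, salicylate and defence genes 3 rose and 3 fell, with a median of -0.27. CHAT, which makes the leaf volatile hexenyl acetate, and JMT, jasmonate methyltransferase, fell by 1.5 and 1.52. The related factors MYC3 and MYC4 changed in opposite directions, MYC3 at 484, 541 and 529 in DVL4 dex arrays against 405, 387 and 385 in DVL4 mock arrays, and MYC4 at 185, 209 and 268 in DVL4 dex arrays against 387, 336 and 413 in DVL4 mock arrays. EV dex averaged 526 ± 62.0 for MYC3 and 445 ± 107 for MYC4. Between DVL4 dex and EV dex, MYC3 did not pass and MYC4 did (limma adjusted p 0.94 and 0.012). Of 8 calmodulin-like genes 0 rose and 3 fell, CML42, CML38 and CML23, by 0.86, 1.28 and 0.75. In the gibberellin (6), ethylene (4), WRKY (6), glutamate receptor (8) and SnRK1 and TOR (5) lists 0 genes passed in limma. Those with an unadjusted p under 0.05 numbered 0, 2, 1, 1 and 3 in the same order. WRKY6, at 0.65, had an adjusted p of 0.051.

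Peptide and epidermal genes included a fall of STOMAGEN, the mesophyll peptide that promotes stomatal formation, with 429, 565 and 612 in DVL4 dex arrays against 1002, 1113 and 1078 in DVL4 mock arrays (-1.0 ± 0.16). EV dex averaged 889. In pooled leaves, fewer cells of a type and less RNA per cell cannot be told apart. The stomatal lineage factors FMA, SPCH and MUTE did not pass, and FMA averaged 101 in DVL4 dex and 144 in DVL4 mock (adjusted p 0.060). RALFL33 fell by 0.43 and RALFL34 by 0.31, both peptides of the RALF family, and CLE26 rose by 0.92. RALFL34 and CLE26 lost the test in 7 and 5 alternatives. FER, a receptor kinase known to bind RALF peptides, had 975, 847 and 964 in DVL4 dex arrays, against 636, 607 and 583 in DVL4 mock arrays, a rise of 0.61 ± 0.13. PSY1R, the receptor-like kinase tied to the PSY1 peptide, rose by 0.52, and of 17 receptor-like kinases 3 rose and 0 fell. Tetraspanins, membrane proteins of which 15 were measured, gave 1 rise and 2 falls. TET7 had 775, 792 and 697 in DVL4 dex arrays, against 330, 355 and 336 in DVL4 mock arrays, and TET3 had 216, 212 and 196 in DVL4 dex arrays, against 436, 438 and 372 in DVL4 mock arrays.

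Of 23 leaf development and polarity genes 1 rose and 6 fell (median -0.25). The falls were small. YAB3, which sets the lower leaf side, had 283, 271 and 235 in DVL4 dex arrays, against 383, 391 and 379 in DVL4 mock arrays. NGA1 and NGA2, factors that shape leaf margins and limit organ width, fell by 0.67 and 0.61, and ARL, which promotes organ size, by 0.48. NGA1, NGA2 and ARL lost the test in 8, 6 and 6 alternatives. The count was not stable, with 1 higher and 1 lower when DVL4 dex array 1 was left out and 0 higher and 1 lower when DVL4 mock array 1 was left out.

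Most replication, repair and histone genes that passed were lower. Of 26 DNA replication and repair genes 1 rose and 6 fell (median -0.31), with POLA3 and ICU2, of the DNA polymerase alpha complex, among the falls. ICU2 lost the test in 10 alternatives. POLA3 had 38.2, 41.8 and 72.5 in DVL4 dex arrays, against 135, 111 and 102 in DVL4 mock arrays (-1.24 ± 0.25). The helicase RECQ4A and the glycosylases UNG and ATNTH1, which remove damaged bases, fell by 0.93, 1.38 and 0.55, whereas the repair gene RAD4 had 309, 375 and 255 in DVL4 dex arrays, against 132, 138 and 139 in DVL4 mock arrays. Of 8 histone genes 0 rose and 4 fell (median -0.30), and HTB4 did not pass, at 1776 in DVL4 dex and 1547 in DVL4 mock. HTB1 and HTB2 encode histone H2B. HTB1 had 157, 185 and 194 in DVL4 dex arrays, against 373, 379 and 363 in DVL4 mock arrays, and HTB2 had 167, 255 and 323 in DVL4 dex arrays, against 571, 528 and 522 in DVL4 mock arrays. EV dex averaged 321 for HTB1. In the cell cycle and mitosis list 3 rose and 1 fell of 19 (median -0.04), which is near the background.

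In 3 RNA-related lists 0 genes rose. Of 14 ribosome assembly and RNA helicase genes 0 rose and 3 fell, and 13 of the 14 were below 0 (median -0.24). RH39, a DEAD-box helicase of chloroplast ribosomal RNA, had 135, 149 and 186 in DVL4 dex arrays, against 327, 315 and 294 in DVL4 mock arrays. PESCADILLO (AT5G14520), of nucleolar ribosome assembly, fell by 0.53. Of 27 splicing and RNA processing genes 0 rose and 5 fell, but the median was -0.06, and 1 fell without DVL4 dex array 1. Y14, of the exon junction complex, fell by 0.46 ± 0.07. Of 12 subunits of the nuclear RNA polymerases 0 rose and 3 fell, NRPB9B by 0.48, NRPE7 by 0.38 and NRPB7 by 0.30, which lost the test in 3, 8 and 11 alternatives.

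Chloroplast functions were covered by several lists. Of 18 nuclear genes of photosystem and thylakoid assembly 1 rose and 5 fell, and 17 were below 0 (median -0.33). LPA19 and PAM68 assist the assembly of photosystem II. LPA19 had 376, 374 and 454 in DVL4 dex arrays, against 684, 733 and 695 in DVL4 mock arrays, and PAM68 had 272, 339 and 298 in DVL4 dex arrays, against 503, 524 and 511 in DVL4 mock arrays. The falls were -0.82 ± 0.09 and -0.77 ± 0.10, with no overlap. CRR41, an assembly factor of the NDH complex, fell by 0.86 and CCB3, of cytochrome b6 maturation, by 0.44. Of 15 organelle RNA editing and processing genes 0 rose and 4 fell, CRR28 by 0.91 and CRR21 by 0.63 being the clearest. In tetrapyrrole synthesis, the route to chlorophyll and haem, 0 rose and 4 fell of 16, all under 1 on the log2 scale, and 3 of them, HEME2, GSA1 and CHLI2, lost the test in 11, 7 and 5 alternatives. The chaperonin Cpn60beta2, which folds chloroplast proteins, had 223, 340 and 394 in DVL4 dex arrays, against 855, 783 and 844 in DVL4 mock arrays (-1.42 ± 0.20).

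Nuclear genes for the photosynthetic machinery itself stayed near the background, with 2 higher and 3 lower of 25 (median -0.04). LHCB4.2, an antenna protein, had 6637, 6866 and 6675 in DVL4 dex arrays, against 4996, 4989 and 5425 in DVL4 mock arrays. CURT1D (AT4G38100), of the family that bends thylakoids, had 287, 350 and 268 in DVL4 dex arrays, against 570, 545 and 566 in DVL4 mock arrays. NdhN and NdhS, of the NDH complex, changed by -0.51 and 0.48, and NdhS lost the test in 10 alternatives.

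Transcripts encoded in the plastid gave negative medians that followed the 5' signal of the arrays. The median of 35 photosynthesis genes against the DVL4 mock mean was -0.78, -0.81 and 0.07 in DVL4 dex arrays 1 to 3, against 0.09, -0.09 and -0.004 in DVL4 mock arrays. In EV dex arrays it was -0.98, 0.009 and 0.11, and the value of -0.98 belongs to the EV dex array with low 5' signal. Thus the 3 arrays with low 5' signal, from both lines, were the low ones. The share of this signal in the plastid changes was not tested. The 10 NDH genes followed the same order, at -0.56, -0.57 and 0.09 in DVL4 dex arrays. Few of these genes passed, with 0 higher and 3 lower of 35 photosynthesis genes, 2 lower of 10 NDH genes and 6 lower of 22 genes of the plastid ribosome and RNA polymerase. Of the last 6, rpl33, rps16, rpoB and rps4 lost the test in 10, 9, 7 and 5 alternatives. In each of them the covariate for low 5' signal was among these alternatives. Genes that were low in DVL4 dex array 3 as well include rpl20, a ribosomal protein, with 165, 129 and 163 in DVL4 dex arrays against 438, 361 and 451 in DVL4 mock arrays, and petN, of the cytochrome b6f complex, with 65.6, 77.9 and 112 in DVL4 dex arrays against 284, 234 and 272 in DVL4 mock arrays. In EV dex rpl20 averaged 176 ± 38.2. In contrast ndhK had 284, 299 and 620 in DVL4 dex arrays, against 1240, 1060 and 1149 in DVL4 mock arrays, so that its fall was smaller in array 3. This gene lost the test in 8 alternatives. Of 16 mitochondria-encoded genes 2 rose and 0 fell, and their median was 0.28, 0.50 and 0.06 in DVL4 dex arrays 1 to 3.

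**Figure D4:**
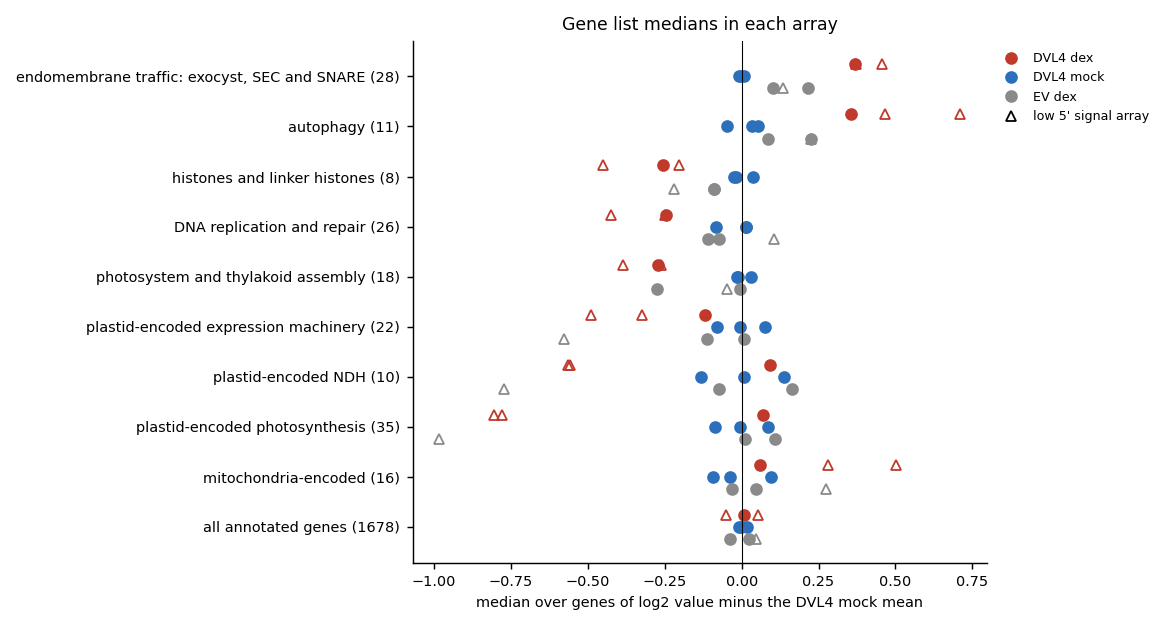
Median over the genes of a list of the log2 value minus that gene's DVL4 mock mean, for each array, with the number of genes in brackets. Open triangles are arrays with low 5' signal, which are low for plastid-encoded photosynthesis (-0.78, -0.81 and -0.98), while the traffic list is between 0.37 and 0.45 in all DVL4 dex arrays.

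Transcription factors of the bZIP family gave 6 rises and 3 falls among 24. Besides HYH, BZIP24, which represses salt responses, had 26.6, 32.4 and 41.6 in DVL4 dex arrays, against 90.8, 67.3 and 62.3 in DVL4 mock arrays. FD, the partner of the flowering signal FT, was dim, at 17.0, 25.7 and 14.8 in DVL4 dex arrays against 44.4, 38.3 and 53.7 in DVL4 mock arrays. The zinc-deficiency factor bZIP19 rose by 0.43. Of 21 cold, dehydration and LEA genes 4 rose and 4 fell. TIL, a lipocalin of temperature tolerance, had 1450, 1392 and 1428 in DVL4 dex arrays, against 2527, 2650 and 2455 in DVL4 mock arrays, and the zinc finger STZ fell by 1.12. The LEA genes LEA26 (AT2G44060) and LEA27 (AT2G46140) rose by 0.47 and 0.79, so that stress-related genes did not share a direction.

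In sulfur and methionine metabolism 3 of 16 genes rose and 3 fell. APS3, an ATP sulfurylase that activates sulfate, had 398, 424 and 426 in DVL4 dex arrays, against 795, 654 and 844 in DVL4 mock arrays, while APS4, of the same enzyme, rose by 0.39 and lost the test in 7 alternatives. Of 18 cytosolic and plastid chaperone genes 2 rose and 4 fell. SGT1A, a co-chaperone of HSP90, had 150, 181 and 212 in DVL4 dex arrays, against 362, 312 and 339 in DVL4 mock arrays, and SQN, the cyclophilin 40 of Arabidopsis, was dim and rose by 1.33. Of 17 iron, zinc and copper genes 3 rose and 3 fell, among them LPR2, a multicopper oxidase of phosphate and iron responses, with 982, 1090 and 778 in DVL4 dex arrays against 614, 530 and 586 in DVL4 mock arrays. Among 14 genes of cuticle, wax and fatty acids, DEWAX (AT5G61590), a repressor of wax synthesis, had 458, 427 and 386 in DVL4 dex arrays, against 591, 810 and 915 in DVL4 mock arrays, a fall of -0.85 ± 0.15. EV dex was lower still, at 134 ± 3.08. DEWAX was thus higher in DVL4 dex than in EV dex, by 1.66 ± 0.15 (limma adjusted p 0.0004).

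Other lists gave counts of a few genes. Among aldehyde dehydrogenases 3 of 8 rose and 1 fell, and the betaine aldehyde dehydrogenases ALDH10A8 and ALDH10A9 rose by 0.46 and 0.58. Subtilases, secreted serine proteases, gave 3 rises and 0 falls among 10, with ARA12 at 1914, 1589 and 2001 in DVL4 dex arrays against 1261, 1146 and 1306 in DVL4 mock arrays. Prenylated Rab acceptors gave 1 rise and 1 fall among 11, as PRA1.B4 rose by 0.72 and PRA8 fell by 0.60. Chromatin remodelling genes gave 2 rises and 1 fall among 23, with INO80 at 0.67, though INO80 lost the test in 10 alternatives. Of 24 P450 genes of the measured families 2 rose and 3 fell. In nutrient transport, the nitrate and peptide transporter NPF3.1 (AT1G68570) had 459, 461 and 591 in DVL4 dex arrays, against 1038, 863 and 1174 in DVL4 mock arrays. The glucosinolate transporters GTR1 and GTR2, of the same family, moved apart, by -0.87 and 0.47. GTR2 did not pass between DVL4 dex and EV dex, with means of 479 and 485. GTR1 averaged 301 in DVL4 dex and 683 in EV dex. The plot of list shares shows the lists side by side.

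**Figure D5:**
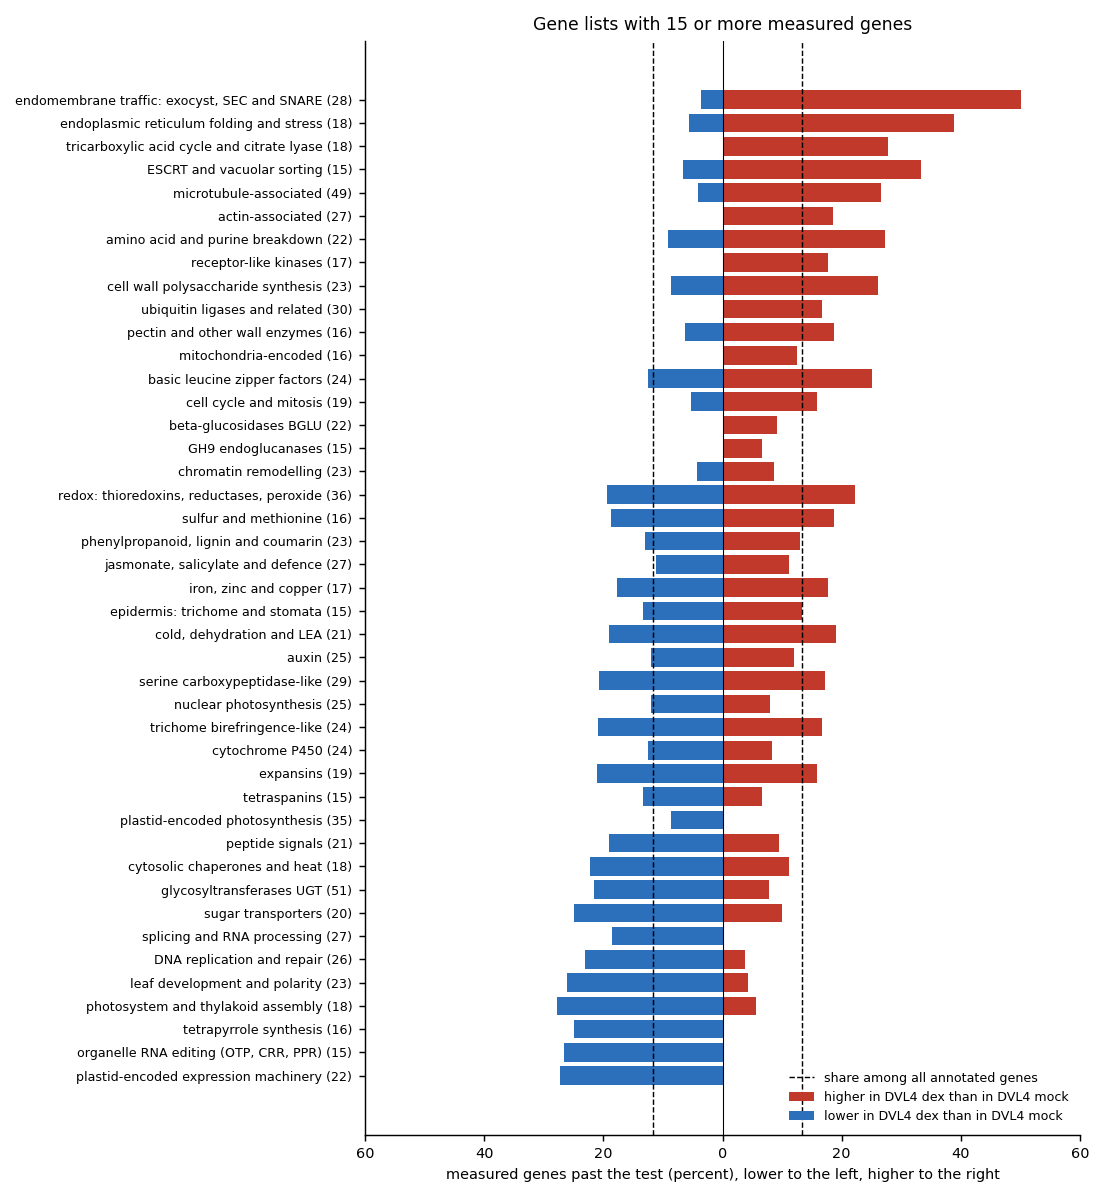
Percent of the measured genes of each list with 15 or more genes (number in brackets) that passed the test as higher (red, right) or lower (blue, left) in DVL4 dex than in DVL4 mock. Dashed lines mark the shares among all annotated genes, 13.3% higher and 11.6% lower. Vesicle traffic, with 14 of 28 higher, is at the top and the plastid-encoded expression machinery, with 6 of 22 lower, at the bottom. Most of these 6 calls were lost with the low 5' state as a covariate.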

How the data were processed

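Total leaf RNA was measured on Affymetrix ATH1 arrays. The authors deposited linear intensity values for 22810 probe sets, computed with dChip per the series' design text. For dChip, the version, the model and the normalization used were not stated there. Array medians ran from 75.4 to 84.1, and no further normalization was applied. A floor of 4.92, the 5th percentile over all arrays, was set before the log2 transform. After the 64 control probe sets were left out, limma 3.58.1 in R 4.3.3 (lmFit, eBayes with trend=TRUE) was fitted to 9 arrays with group as the factor. EV dex thus adds to the estimate of the spread. Tests were 2-sided, with Benjamini-Hochberg adjustment over 22746 probe sets and a threshold of 0.05. The number of arrays limits the precision. The fit was tested on simulated data.

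Of the probe sets, 13513 have 1 gene, 503 several and 8730 are unnamed here. Gene names were updated through the Entrez identifier to the RefSeq table of TAIR10.1 (13436 probe sets matched), and a gene was taken by its brightest probe set. That left 13350 genes, 1678 of them with a name beyond the locus code. The 76 lists hold 1231 of these genes, and some results are not reported here. The members and lists were chosen with earlier results of these data known. Genes were named by rule: the 25 largest rises and 25 largest falls that passed with groups apart and a brighter group above the median, up to 6 passing members (smallest p) and 4 others (brightest) per list, and up to 4 per family. Genes with only a locus code were not described, and some further list members were named beside these after their values were seen. Roles come from general knowledge. Replicates are biological per the series' design text. Sample titles gave the groups and the replicate numbers. Same-numbered DVL4 dex and mock arrays had deviations from the group means that correlated at 0.027, 0.044 and 0.092, so the numbers were not taken as pairs. Alternatives were median centring, quantile normalization, no floor, a higher floor (25th percentile), leaving out dim probe sets, trend=FALSE, array weights, fitting the DVL4 line alone, a replicate block, the low 5' state (dap ratio under 0.5) as a covariate, the arrays with normal 5' signal alone, and leaving out each DVL4 dex or DVL4 mock array in turn. Python 3.11.15 with matplotlib 3.10.9 drew the plots.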

Additional observations from a re-analysis of the deposited data

How the results depend on the processing

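The count of probe sets that passed (5401, with 2913 higher and 2488 lower) was within 1.5 times of itself under quantile normalization, median centring, both other floors, the filter on dim probe sets, trend=FALSE, the DVL4 line alone and the covariate for low 5' signal (3996). It moved further under array weights, to 8999 (4490 higher, 4509 lower). With only the arrays of normal 5' signal, which leaves 1 DVL4 dex array assumed to vary like the other groups, it was 1360 (741 higher, 619 lower), which kept 1228 of the 5401 calls (22.7%) with 0 turned in sign. Under the floor at the 25th percentile 4556 calls were kept and 7 turned in sign. Leaving out 1 DVL4 dex or mock array gave 3477 to 5532 calls, 1924 to 2886 higher and 1553 to 2646 lower. The lowest total, 3477, came without DVL4 dex array 1, the higher calls were 1937 without DVL4 dex array 2, and the lower calls were 1608 without DVL4 mock array 1. With the replicate block 5116 probe sets passed, and every DVL4 dex and DVL4 mock array correlated best with the array of its own number in the other group, which is a hint from the data and not the design. Named genes with an adjusted p over 0.02 often lost the test in several alternatives. Low intensities near the floor and 3 arrays a group limit the small changes.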
